A study of Homo sapiens with 48 samples.

Results

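The genes described here are 49 interferon-stimulated genes, taken by symbol from the 20241 genes in the deposited RNAseq table. They were examined across parental PSN1 cells, a pancreatic ductal adenocarcinoma line, and derivatives of that line with acquired resistance to Talazoparib (TalaR), an inhibitor of the DNA repair enzymes PARP1 and PARP2 that also traps them on DNA. Parental cells were untreated. TalaR-M cells had been selected in rising concentrations of Talazoparib over 4 months and were maintained in medium with 50 nM of the drug. TalaR-DF cells were TalaR cells grown for 4 weeks in medium without the drug. Each group had 3 libraries, 9 in all of the 48 samples in the series, and the labels do not say whether replicates were separate cultures. P-values therefore measure the spread between these libraries, which may be technical. Only 1 resistant PSN1 population was analysed here, with and without the drug, so its history and the effect of the drug cannot be told apart.

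Interferons are secreted proteins that bind receptors on the cell surface and activate JAK kinases, which phosphorylate transcription factors. Type I and type III interferons drive a complex that holds STAT2 and IRF9 to a DNA element called the ISRE, whereas interferon gamma acts mainly through a separate element, the GAS. The induced genes encode sensors of foreign RNA and DNA, enzymes that conjugate the ubiquitin-like protein ISG15, and proteins that block virus entry, replication or release. Tumor cells can express such genes without infection, and DNA damage that releases DNA into the cytosol is a known trigger.

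RefSeq promoter windows on GRCh38.p14, reaching from 250 bases before to 50 bases after each start, were matched for 40 of the 49 members. The letters GAAANNGAAA, searched on both strands and counted where they overlapped, were found for 27 of the 40 members (67.5%), against 3.96% of the 9563 tested genes that had a window. TTCNNNGAA, the GAS letters, also searched on both strands, was found for 12 of the 40 (30.0%) and for 8.65% of those tested genes. These shares describe the members and are not a test. The following 250 bases before the start are shown for 4 members that were higher in TalaR-M than in TalaR-DF cells, written 5′ to 3′ on the gene's strand, with the ISRE letters or their reverse complement in capitals. IFI6 lies at chr1:27672193-27672442 on the minus strand, IFI44L at chr1:78620198-78620447 on the plus strand, IFI44 at chr1:78649581-78649830 on the plus strand, and BST2 at chr19:17405631-17405880 on the minus strand.
IFI6: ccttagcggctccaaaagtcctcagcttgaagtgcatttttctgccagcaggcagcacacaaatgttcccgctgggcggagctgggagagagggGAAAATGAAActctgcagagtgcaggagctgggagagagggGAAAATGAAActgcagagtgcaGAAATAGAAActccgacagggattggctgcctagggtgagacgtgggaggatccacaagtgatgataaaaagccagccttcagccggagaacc
IFI44L: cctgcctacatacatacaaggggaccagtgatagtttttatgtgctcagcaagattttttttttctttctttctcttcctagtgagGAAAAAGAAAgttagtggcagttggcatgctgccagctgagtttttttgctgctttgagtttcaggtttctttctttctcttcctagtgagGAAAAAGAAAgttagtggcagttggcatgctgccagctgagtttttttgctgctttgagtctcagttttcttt
IFI44: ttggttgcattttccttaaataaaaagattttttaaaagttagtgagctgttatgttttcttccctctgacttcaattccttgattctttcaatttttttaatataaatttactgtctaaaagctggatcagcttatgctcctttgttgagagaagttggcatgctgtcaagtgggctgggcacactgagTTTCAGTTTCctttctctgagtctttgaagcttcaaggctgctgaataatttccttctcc
BST2: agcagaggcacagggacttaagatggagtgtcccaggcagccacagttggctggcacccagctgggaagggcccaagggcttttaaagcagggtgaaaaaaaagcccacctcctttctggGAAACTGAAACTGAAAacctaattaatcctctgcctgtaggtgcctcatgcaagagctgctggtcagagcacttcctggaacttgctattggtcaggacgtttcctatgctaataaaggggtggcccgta
Matches in IFI6 began 156, 115 and 93 bases before the start, the pair in IFI44L 164 and 73 bases before it, the match in IFI44 60 bases before it, and the overlapping pair in BST2 130 and 124 bases before it. HERC6, IRF9, OAS1 and SAMD9L had no match in their windows, which says only that these letters are not in them.

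Values are log2 CPM, where CPM are a gene's reads scaled to an effective library size, with a small prior count added, and values under 0 were set to 0. A gene listed at 0 was at most at 1 CPM in that library, and fold changes of low genes are understated on this scale. Reads recovered from the values numbered 8387755 in TalaR-M replicate 2 and between 12213605 and 14973847 in the others. TalaR-M replicate 2 stood apart, with a correlation across 10512 genes of 0.78 with the other TalaR-M libraries, which correlated at 0.99 with each other. Of the 45 members that could be tested, 20 lay over 2-fold from the mean of replicates 1 and 3 in that library, 7 above and 13 below, while none of the parental and TalaR-DF libraries held such a member. Its deviation followed transcript length, with a Spearman rho across the 45 members of -0.69, beside values of -0.50 to 0.34 for the parental and TalaR-DF libraries. The 15 shortest members, from 611 to 2390 bases of exon, had a median deviation of 0.48, and the 15 longest, from 4302 to 9975 bases, a median of -1.25. Counts for the members and for the other lists of interferon genes are therefore given with and without this library. Values of many but not all single members are given in the same way, and the part of this library in each result was not tested.

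**Figure D1:**
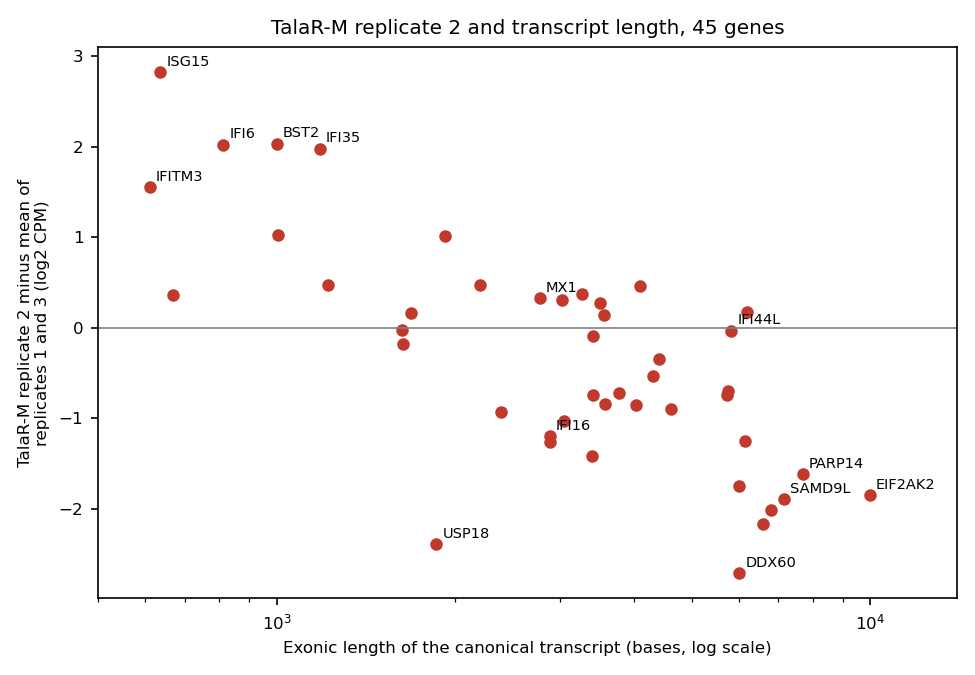
Each point is 1 of the 45 tested members. The horizontal axis is the exonic length of the canonical transcript in bases on a log scale, and the vertical axis is the value of TalaR-M replicate 2 minus the mean of TalaR-M replicates 1 and 3 in log2 CPM. Short members such as ISG15 and IFI6 lie above 0, and long members such as DDX60 lie below it.

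Many of the members sit beside their relatives in the genome, in positions of the GENCODE 44 annotation of GRCh38. HERC6 (chr4:88378739-88443097) and HERC5 (chr4:88457119-88506163) adjoin on the plus strand, as do IFI44L (chr1:78619902-78646145) and IFI44 (chr1:78649796-78664078). GBP1 (chr1:89051882-89065360), GBP2 (chr1:89106132-89150456) and GBP4 (chr1:89181144-89198942) form a cluster on the minus strand. The OAS genes OAS1, OAS3 and OAS2 span chr12:112905856-113011723, MX2 (chr21:41361999-41409393) lies next to MX1 (chr21:41420020-41470071), and SAMD9 next to SAMD9L on chromosome 7. Overlaps were sought only between exons of canonical transcripts. By these exons, OAS1, MX1, GBP4, TRIM25, IRF1, IRF9, EIF2AK2, XAF1 and SP110 overlap at least 1 gene on the opposite strand. Whether the counting used strand is not given in the sources used here.

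The epithelial identity of the cells was checked against fixed markers. EPCAM, KRT7, KRT8, KRT18, KRT19 and MUC1 were detected in every library, while the epithelial cadherin CDH1 was listed at 0 in all 9. Of 8 leukocyte markers, 6 were listed at 0 in all 9 libraries. PTPRC, the pan-leukocyte CD45 gene, was listed at 1.79, 0 and 0.83 log2 CPM in the TalaR-M libraries and at 0.05 or less in the others. The summed level of the leukocyte markers ranged from 11.1 to 14.7 CPM in parental, from 4.14 to 7.11 CPM in TalaR-M and from 1.18 to 2.55 CPM in TalaR-DF libraries, all of it from CD14 in the parental ones. The summed epithelial markers ranged from 1089 to 1143 CPM in parental, from 1708 to 5792 CPM in TalaR-M and from 952 to 1088 CPM in TalaR-DF libraries. The top of the TalaR-M range came from replicate 2, where KRT8 was 11.44 log2 CPM beside 9.92 and 9.83 in replicates 1 and 3. Of 6 fibroblast markers, 0 were listed at 0 in all 9 libraries, and their summed level ranged from 495 to 510 CPM in parental, from 303 to 455 CPM in TalaR-M and from 101 to 110 CPM in TalaR-DF libraries. These markers moved in different directions. The collagen gene COL1A2 was listed at 7.85 to 7.88 log2 CPM in parental libraries. It was listed at 0 in all 3 TalaR-M and at 3.67 to 3.90 in TalaR-DF libraries. COL1A1 was instead highest in TalaR-M libraries, at 8.13 to 8.67 log2 CPM. It measured 6.45 to 6.55 in parental and 3.67 to 3.96 in TalaR-DF libraries. DCN was above 0 only in TalaR-M libraries, at 1.45 to 1.73 log2 CPM. LUM and PDGFRA were, like COL1A2, lowest in TalaR-M, while PDGFRB was lower in both resistant populations, which overlapped. Of 4 endothelial markers, VWF was listed at 0 in all 9 libraries, and their summed level ranged from 28.8 to 30.9 CPM in parental, from 5.91 to 9.06 CPM in TalaR-M and from 2.92 to 3.24 CPM in TalaR-DF libraries. The fibroblast, leukocyte and endothelial sums were thus lowest in TalaR-DF cells, as were several members, and the part of these differences in the results was not tested. Fewer cells expressing a gene and less RNA per cell cannot be told apart in these bulk samples.

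Of the 49 members, 45 exceeded 1 CPM in at least 3 libraries and were tested among 12471 genes. OAS2 passed that filter only through the TalaR-M libraries and therefore had to differ. RSAD2, which encodes the antiviral enzyme viperin, and its neighbour CMPK2, a mitochondrial nucleotide kinase, were listed at 0 in all 9 libraries. TRIM22, an antiviral ubiquitin ligase, was listed at 2.16 in TalaR-M replicate 1, at 1.71 in replicate 3 and at 0 elsewhere. IFI27, a widely used interferon signature gene, was listed at 1.30 log2 CPM in TalaR-M replicate 2 and at 0 elsewhere.

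Between TalaR-M and parental cells, members moved in both directions. A gene was called when limma's Benjamini-Hochberg adjusted p over all 12471 genes was under 0.05 and the change was at least 2-fold. Called higher were 8 of the 45 members (17.8%) beside 5.53% of all genes tested, and 3 members (6.67%) were called lower beside 7.72% of all genes. By the adjusted p alone, 9 members rose and 3 fell, beside 10.3% and 13.2% of all genes. The members' median log2 fold change was 0.19, and that of all genes was -0.09. Without TalaR-M replicate 2, 10 members were called higher and 3 lower, beside 6.78% and 7.07% of all genes, and the members' median was 0.35. By the adjusted p alone 27 members then rose and 11 fell, beside 30.2% and 30% of all genes. Leaving OAS2 out, 7 of 44 members were called higher with all libraries and 9 without replicate 2.

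After drug withdrawal, 28 of the 45 members had a log2 fold change below 0 against parental cells and 16 above 0. Of all 12471 genes tested, 5964 lay below 0 and 6397 above 0. Between TalaR-DF and parental cells, 1 member was called higher (2.22%) beside 2.25% of all genes, and 8 were called lower (17.8%) beside 7.49%. The adjusted p alone gave 2 members that rose and 11 that fell, beside 6.77% and 11.8% of all genes. The median log2 fold change was -0.21 over the members and 0.01 over all genes. Leaving out TalaR-M replicate 2, which here enters only through the shared estimate of the spread, gave 2 members called higher and 9 lower, beside 2.73% and 8.63% of all genes. By the adjusted p alone 11 members then rose and 21 fell, beside 32.5% and 30.4% of all genes.

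When TalaR-M was compared directly with TalaR-DF cells, most calls were on the TalaR-M side. There 13 members (28.9%) were called higher in TalaR-M beside 5.29% of all genes, and 1 member (2.22%) was called lower beside 1.64%. At the adjusted p alone, 17 members were higher and 1 was lower, beside 7.79% and 4.25% of all genes. The median was 0.52 over the members and -0.09 over all genes. Without TalaR-M replicate 2, 16 members were called higher and 0 lower, beside 6.96% and 1.4% of all genes, and the median was 0.76. In that fit 31 members were higher and 5 lower by the adjusted p alone, beside 23.5% and 25.3% of all genes. Leaving OAS2 out, 12 of 44 members were called higher with all libraries and 15 without replicate 2. The 3 comparisons share their samples, so they are not independent of each other.

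**Figure D2:**
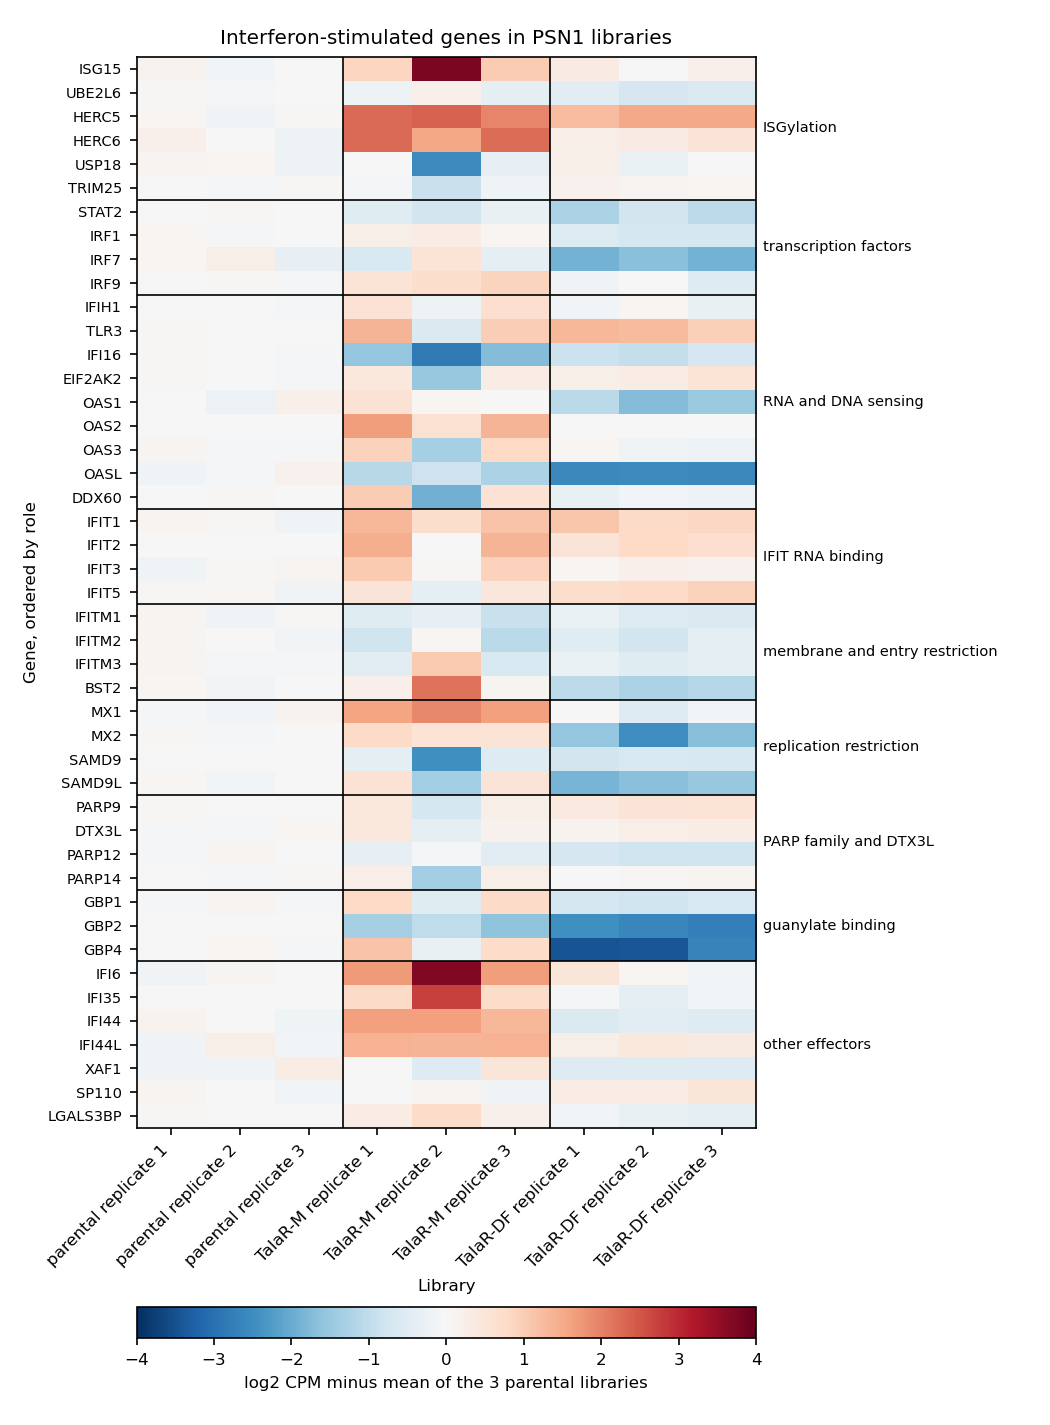
Each row is 1 of the 45 tested members, grouped by role, and each column is 1 of the 9 PSN1 libraries. Color gives log2 CPM minus the mean of the 3 parental libraries, from -4 (blue) to 4 (red). HERC5, HERC6, MX1, IFI6, IFI44 and IFI44L are red in all 3 TalaR-M libraries, while IRF7, OASL, GBP2 and GBP4 are blue in all 3 TalaR-DF libraries.

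**Figure D3:**
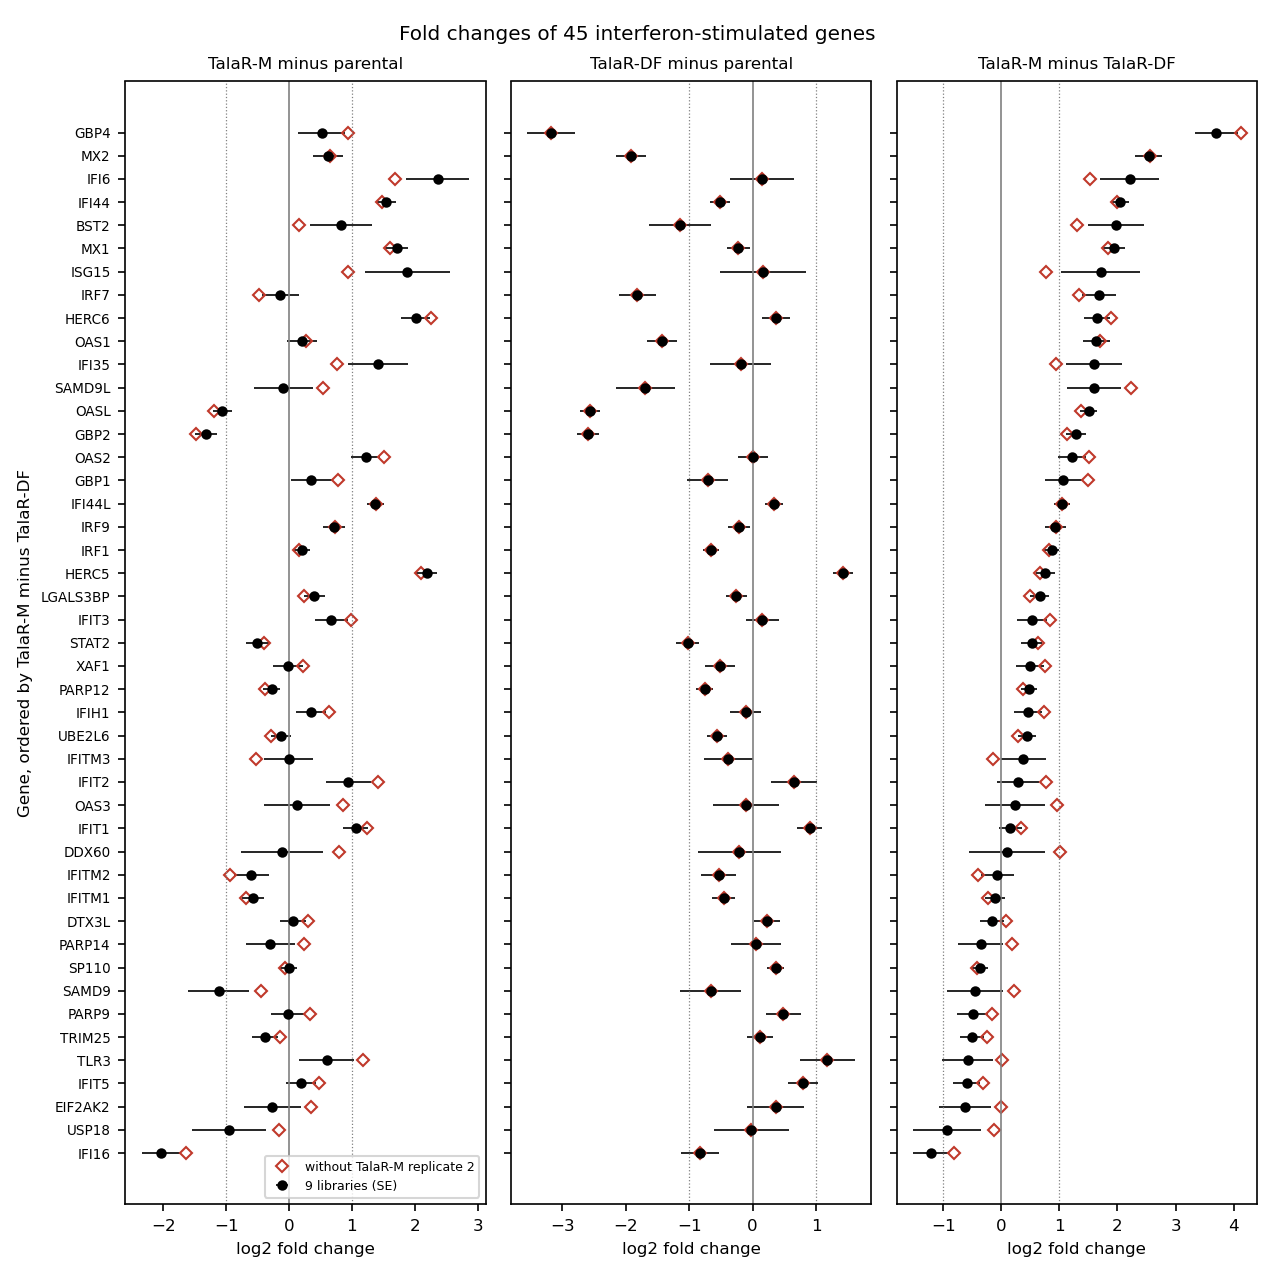
Log2 fold changes of the 45 tested members in the 3 comparisons, ordered by TalaR-M minus TalaR-DF. Filled points with bars are the fit of 9 libraries with its standard error, open diamonds the fit without TalaR-M replicate 2, and dotted lines mark 2-fold. GBP4 has the largest difference between TalaR-M and TalaR-DF, IFI16 is the lowest, and OAS2, listed at 0 in parental and TalaR-DF libraries, is plotted as a difference that is no fold.

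Among the genes of ISG15 conjugation, the ligase genes HERC5 and HERC6 were higher in TalaR-M cells, and the other members of the group did not pass between TalaR-M and parental cells in the 9-library fit. In the order of replicates 1, 2 and 3, HERC5, the main ligase for ISG15 in human cells, measured 0.99, 0.79 and 0.98 log2 CPM in parental, 3.17, 3.29 and 2.86 in TalaR-M, and 2.16, 2.45 and 2.42 in TalaR-DF libraries. No library of one group overlapped another. HERC5 rose by a log2 fold change of 2.19 ± 0.16 (SE, n = 3 and 3, adjusted p = 3.48e-05) in TalaR-M and of 1.43 ± 0.16 (adjusted p = 0.000548) in TalaR-DF over parental cells. It was the only member called higher in TalaR-DF cells in the 9-library fit. The difference of 0.76 ± 0.16 between TalaR-M and TalaR-DF passed with all libraries (adjusted p = 0.0206) but not when any of the 3 TalaR-DF libraries was left out (adjusted p between 0.0575 and 0.0872).

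HERC6, a related ligase gene beside HERC5 on chromosome 4, measured 1.85, 1.66 and 1.45 log2 CPM in parental, 3.92, 3.19 and 3.90 in TalaR-M, and 1.92, 1.97 and 2.17 in TalaR-DF libraries. All TalaR-M values lay above all others. Its log2 fold change was 2.01 ± 0.23 over parental (adjusted p = 0.0004) and 1.65 ± 0.23 over TalaR-DF cells (adjusted p = 0.0026), while TalaR-DF and parental cells differed by 0.37 ± 0.23 (adjusted p = 0.348). That last difference passed without TalaR-M replicate 2 (adjusted p = 0.0308).

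ISG15 itself was dominated by the library that stood apart. It measured 3.61, 3.34 and 3.44 log2 CPM in parental, 4.33, 7.22 and 4.46 in TalaR-M, and 3.78, 3.46 and 3.65 in TalaR-DF libraries. The TalaR-M libraries were the 3 highest, yet the log2 fold change of 1.88 ± 0.68 did not pass (adjusted p = 0.0807). Without replicate 2 the difference was smaller and passed, at 0.94 (adjusted p = 6.43e-05). UBE2L6, the conjugating enzyme for ISG15, fell in TalaR-DF cells by 0.56 on the log2 scale (adjusted p = 0.0407), which did not pass when any library other than TalaR-M replicates 2 and 3 was left out (adjusted p between 0.0513 and 0.147). With TalaR-M replicate 2 left out it passed there (adjusted p = 1.59e-05) and also fell in TalaR-M cells, by 0.28 (adjusted p = 0.00624). USP18, which removes ISG15 from proteins and restrains the interferon receptor, differed by -0.95 ± 0.59 in TalaR-M and by -0.02 ± 0.59 in TalaR-DF cells, and neither difference passed. Of the USP18 transcript, 43.7% of 75-base words also occur in another annotated gene, so its values are uncertain. TRIM25, a ubiquitin ligase that acts on the RNA sensor RIG-I, differed by -0.38 ± 0.20 and 0.12 ± 0.20 and did not pass. Between TalaR-M and TalaR-DF cells it passed without replicate 2 (-0.25, adjusted p = 0.00654).

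The 4 members that are transcription factors had lower means in TalaR-DF than in parental cells. By the adjusted p 3 of these 4 fell, beside 11.8% of all genes tested. STAT2, a subunit of the complex that binds the ISRE, measured 5.23, 5.28 and 5.22 log2 CPM in parental, 4.76, 4.51 and 4.95 in TalaR-M, and 3.96, 4.51 and 4.18 in TalaR-DF libraries. It fell by 1.03 on the log2 scale in TalaR-DF cells (SE 0.18, adjusted p = 0.00549), to 0.491 of the parental level. It also fell in TalaR-M cells without replicate 2, by 0.39 (adjusted p = 0.0259). IRF7, which drives the later wave of type I interferon genes, measured 1.98, 2.13 and 1.56 log2 CPM in parental and 1.28, 2.43 and 1.55 in TalaR-M libraries. In TalaR-DF libraries it was listed at 0, 0.22 and 0. IRF7 differed by -1.82 ± 0.29 between TalaR-DF and parental cells (adjusted p = 0.00344) and by 1.68 ± 0.29 between TalaR-M and TalaR-DF cells (adjusted p = 0.00838), and the TalaR-DF values lay below all others. Without replicate 2 it differed by -0.48 between TalaR-M and parental cells (adjusted p = 0.0397).

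IRF1, a factor induced mainly by interferon gamma, followed IRF7 at a smaller size. It fell by 0.66 on the log2 scale in TalaR-DF cells (SE 0.12, adjusted p = 0.00705) and was higher in TalaR-M than in TalaR-DF cells by 0.86 ± 0.12 (adjusted p = 0.00315). IRF9, the DNA-binding subunit of that complex, instead rose in TalaR-M cells, by 0.72 ± 0.18 over parental (adjusted p = 0.0205) and by 0.93 ± 0.18 over TalaR-DF cells (adjusted p = 0.0121). The rise over parental cells did not pass when parental replicate 1, 2 or 3 or TalaR-M replicate 3 was left out (adjusted p between 0.0559 and 0.0807). An overlapping gene on the same strand shares 92.7% of the 75-base words of IRF9, so its reads could have been split between them.

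RNA and DNA sensors went in different directions. OAS1, which makes the oligoadenylates that activate RNase L, measured 2.37, 2.11 and 2.56 log2 CPM in parental, 2.91, 2.43 and 2.32 in TalaR-M, and 1.27, 0.61 and 0.86 in TalaR-DF libraries. TalaR-DF values lay below all others, whereas parental and TalaR-M values overlapped. It fell by 1.43 on the log2 scale in TalaR-DF cells (SE 0.23, adjusted p = 0.00364) and was 1.64 ± 0.23 higher in TalaR-M than in TalaR-DF cells (adjusted p = 0.00321). OAS2, a relative with the same activity, was listed at 0 in all 6 parental and TalaR-DF libraries and at 1.67, 0.62 and 1.36 log2 CPM in TalaR-M. Since OAS2 entered the test only through these TalaR-M values, they are given as a description, with no fold and no p. OAS3, the longest of the family, measured 3.85 log2 CPM in TalaR-M replicate 2 and 6.07 and 5.96 in replicates 1 and 3, beside 4.92 to 5.29 in all other libraries. Its change over parental cells was 0.13 ± 0.52 with all libraries and 0.85 without replicate 2 (adjusted p = 2.16e-05).

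OASL, a family member that lacks oligoadenylate synthesis and enhances RIG-I signaling, was lower in both resistant populations. It measured 2.45, 2.54 and 2.74 log2 CPM in parental and 1.46, 1.76 and 1.32 in TalaR-M libraries, and was listed at 0, 0.03 and 0 in TalaR-DF libraries. The 3 groups did not overlap. OASL fell by 1.06 on the log2 scale in TalaR-M (SE 0.15, adjusted p = 0.00147) and by 2.57 in TalaR-DF cells (SE 0.15, adjusted p = 1.2e-05), and TalaR-M exceeded TalaR-DF by 1.5 ± 0.15 (adjusted p = 0.000505). IFI16, a nuclear DNA sensor that can act upstream of STING, measured 8.80, 8.75 and 8.70 log2 CPM in parental, 7.20, 5.91 and 7.03 in TalaR-M, and 7.89, 7.79 and 8.07 in TalaR-DF libraries. Every TalaR-M value was below every TalaR-DF value, and these below every parental value. The log2 fold change was -2.04 ± 0.31 in TalaR-M over parental cells (adjusted p = 0.00195) and -1.64 without replicate 2 (adjusted p = 1.76e-08). IFI16 was the only member called lower in TalaR-M than in TalaR-DF cells (-1.21 ± 0.31, adjusted p = 0.0388), a call that was lost when any parental or TalaR-DF library was left out (adjusted p between 0.0761 and 0.143). Without TalaR-M replicate 2 that difference was -0.81 (adjusted p = 1.34e-05) and was no longer 2-fold.

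For 2 further sensors the call turned on TalaR-M replicate 2. TLR3, the endosomal receptor for double-stranded RNA, measured 1.34, 1.29 and 1.28 log2 CPM in parental, 2.67, 0.74 and 2.30 in TalaR-M, and 2.61, 2.58 and 2.24 in TalaR-DF libraries. All libraries of the resistant cells except TalaR-M replicate 2 lay above the parental ones. TLR3 was not called in the 9-library fit (log2 fold change 0.60 ± 0.44 in TalaR-M and 1.18 ± 0.44 in TalaR-DF cells), and without replicate 2 it was called in both, at 1.18 (adjusted p = 5.98e-05) and 1.18 (adjusted p = 2.31e-05). DDX60, a helicase that assists RIG-I, measured 3.29, 3.33 and 3.27 log2 CPM in parental, 4.32, 1.38 and 3.87 in TalaR-M, and 3.00, 3.17 and 3.09 in TalaR-DF libraries. Its difference between TalaR-M and parental cells was -0.11 ± 0.65 with all libraries and 0.80 without replicate 2 (adjusted p = 0.000415), so its direction rests on that library. Against TalaR-DF cells the values were 0.10 ± 0.65 and 1.01 (adjusted p = 0.000118). IFIH1 (the RNA sensor MDA5) and EIF2AK2 (the kinase PKR) differed by 0.35 ± 0.24 and -0.27 ± 0.45 between TalaR-M and parental cells and did not pass. Without replicate 2 they rose, by 0.63 (adjusted p = 0.00122) and 0.35 (adjusted p = 0.00366).

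The IFIT genes, whose proteins bind viral RNA that lacks a host-type cap, had log2 fold changes above 0 against parental cells in both resistant populations, and IFIT1 passed in both. IFIT1 measured 3.24, 3.17 and 2.99 log2 CPM in parental, 4.46, 3.83 and 4.28 in TalaR-M, and 4.23, 3.91 and 3.97 in TalaR-DF libraries. The resistant libraries all exceeded the parental ones and overlapped each other. IFIT1 rose by 1.06 ± 0.20 in TalaR-M (adjusted p = 0.00578) and by 0.90 ± 0.20 in TalaR-DF cells (adjusted p = 0.0145), the latter not passing when TalaR-DF replicate 1 or parental replicate 2 or 3 was left out (adjusted p between 0.0554 and 0.0700). TalaR-M and TalaR-DF cells differed by 0.16 ± 0.20 (adjusted p = 0.581). IFIT2 measured 2.62, 2.59 and 2.60 log2 CPM in parental, 4.07, 2.60 and 3.97 in TalaR-M, and 3.10, 3.39 and 3.27 in TalaR-DF libraries. TalaR-M replicate 2 sat at the parental level, while replicates 1 and 3 were above all others. It did not pass with all libraries (0.94 ± 0.36, adjusted p = 0.0951) and was called in TalaR-M over parental cells without replicate 2, at 1.41 (adjusted p = 1.33e-06). IFIT3 and IFIT5 differed by 0.67 ± 0.26 and 0.19 ± 0.24 in TalaR-M and by 0.15 ± 0.26 and 0.79 ± 0.24 in TalaR-DF cells, and none of these passed in the 9-library fit. When replicate 2 was left out, IFIT3 rose in TalaR-M cells by 0.99 (adjusted p = 1.24e-05), and IFIT5 rose by 0.48 in TalaR-M (adjusted p = 0.000888) and by 0.79 in TalaR-DF cells (adjusted p = 6.88e-06).

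The genes BST2, IFITM1, IFITM2 and IFITM3, whose proteins act at membranes, did not pass against parental cells in the 9-library fit. BST2 (tetherin), which holds budding virus at the cell surface, measured 7.03, 6.86 and 6.99 log2 CPM in parental, 7.17, 9.15 and 7.06 in TalaR-M, and 5.93, 5.71 and 5.81 in TalaR-DF libraries. TalaR-DF libraries were the 3 lowest, and TalaR-M replicates 1 and 3 lay close above the parental range. BST2 was called higher in TalaR-M than in TalaR-DF cells (1.98 ± 0.49, adjusted p = 0.0361), a call lost when any parental or TalaR-DF library was left out (adjusted p between 0.0718 and 0.120) and kept without TalaR-M replicate 2, at 1.30 (adjusted p = 1.53e-07). Its level in TalaR-DF cells was 1.15 below the parental level on the log2 scale, with adjusted p = 0.162 in the 9-library fit and 8.16e-08 without replicate 2. IFITM1, IFITM2 and IFITM3, which hinder fusion of viruses with the cell membrane, differed by -0.57 ± 0.18, -0.60 ± 0.28 and 0.00 ± 0.39 in TalaR-M and by -0.46 ± 0.18, -0.53 ± 0.28 and -0.39 ± 0.39 in TalaR-DF cells. Without replicate 2 all 3 fell in both, by 0.69, 0.94 and 0.52 in TalaR-M (adjusted p = 0.000624, 1.78e-05 and 0.000339) and with adjusted p = 0.00399, 0.000535 and 0.00123 in TalaR-DF cells. All 3 share 75-base words with other genes, over 52.2%, 7.08% and 12.5% of their transcripts.

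MX1 and MX2, dynamin-like GTPases that trap viral nucleocapsids, were higher in TalaR-M than in TalaR-DF cells but differed in where the parental cells lay. MX1 measured 1.88, 1.82 and 2.06 log2 CPM in parental, 3.49, 3.85 and 3.55 in TalaR-M, and 1.89, 1.39 and 1.79 in TalaR-DF libraries. TalaR-M stood above both other groups, which overlapped. MX1 rose 3.28-fold over parental (log2 fold change 1.71 ± 0.18, adjusted p = 0.00029) and 3.84-fold over TalaR-DF cells (1.94 ± 0.18, adjusted p = 0.000364). MX2 measured 3.25, 3.19 and 3.22 log2 CPM in parental, 3.98, 3.78 and 3.77 in TalaR-M, and 1.66, 0.74 and 1.51 in TalaR-DF libraries. The 3 groups did not overlap. MX2 fell by 1.92 on the log2 scale in TalaR-DF cells (SE 0.24, adjusted p = 0.000816), to 0.265 of the parental level, while its difference of 0.62 ± 0.24 between TalaR-M and parental cells did not pass (adjusted p = 0.0955) and passed without replicate 2, at 0.65 (adjusted p = 0.0258). MX2 was 5.80-fold higher in TalaR-M than in TalaR-DF cells (2.54 ± 0.24, adjusted p = 0.000344).

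SAMD9L, an antiviral and growth-restraining protein, measured 3.96, 3.78 and 3.91 log2 CPM in parental, 4.45, 2.53 and 4.40 in TalaR-M, and 2.02, 2.20 and 2.36 in TalaR-DF libraries. TalaR-DF libraries were the 3 lowest. It was called lower in TalaR-DF than in parental cells (-1.69 ± 0.46, adjusted p = 0.0382), a call lost when any parental or TalaR-DF library was left out (adjusted p between 0.0949 and 0.123). Between TalaR-M and parental cells SAMD9L differed by -0.09 ± 0.46 with all libraries and by 0.54 without replicate 2 (adjusted p = 0.00319), so that its direction also rests on that library. Without replicate 2 it was called higher in TalaR-M than in TalaR-DF cells (2.23, adjusted p = 9.06e-08). Its neighbour SAMD9 differed by -1.11 ± 0.49 in TalaR-M and by -0.66 ± 0.49 in TalaR-DF cells, and neither passed in the 9-library fit. Without replicate 2 SAMD9 fell by 0.44 in TalaR-M (adjusted p = 0.000812) and by 0.66 in TalaR-DF cells (adjusted p = 1.44e-05).

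The PARP members, PARP9, PARP12 and PARP14, are interferon-induced relatives of the drug's targets, and of these only PARP12 passed in the 9-library fit. PARP12 fell in TalaR-DF cells by 0.76 on the log2 scale (SE 0.14, adjusted p = 0.00681), and without TalaR-M replicate 2 also in TalaR-M cells, by 0.38 (adjusted p = 0.00253). PARP9 and its partner DTX3L, a ubiquitin ligase, differed by -0.01 ± 0.27 and 0.06 ± 0.20 in TalaR-M and by 0.49 ± 0.27 and 0.22 ± 0.20 in TalaR-DF cells. PARP14 differed by -0.30 ± 0.39 and 0.06 ± 0.39. PARP9, DTX3L and PARP14 did not pass with all libraries. Without replicate 2 they rose in TalaR-M cells, by 0.33, 0.30 and 0.24 (adjusted p = 0.00641, 0.00783 and 0.00399), and PARP9 and DTX3L also passed in TalaR-DF cells (adjusted p = 0.00021 and 0.0183).

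The guanylate-binding proteins, GTPases induced most strongly by interferon gamma, included the members that were furthest below the parental level in TalaR-DF cells. GBP4 measured 3.45, 3.52 and 3.40 log2 CPM in parental and 4.60, 3.14 and 4.19 in TalaR-M libraries, and was listed at 0, 0.03 and 0.79 in TalaR-DF libraries. Parental and TalaR-M values overlapped through replicate 2, and TalaR-DF values were far below both. GBP4 differed by -3.18 ± 0.37 between TalaR-DF and parental cells (adjusted p = 0.000635) and by 3.70 ± 0.37 between TalaR-M and TalaR-DF cells (adjusted p = 0.000508), the widest difference of any tested member. Between TalaR-M and parental cells the difference was 0.52 ± 0.37 (adjusted p = 0.328), and 0.94 without replicate 2 (adjusted p = 0.00336).

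GBP2 measured 6.25, 6.26 and 6.21 log2 CPM in parental, 4.91, 5.23 and 4.63 in TalaR-M, and 3.80, 3.62 and 3.50 in TalaR-DF libraries. The groups were ordered without overlap, with the parental cells highest. It fell by 1.32 on the log2 scale in TalaR-M (SE 0.18, adjusted p = 0.00105) and by 2.60 in TalaR-DF cells (SE 0.18, adjusted p = 2.69e-05), where 0.165 of the parental level was left, and TalaR-M exceeded TalaR-DF by 1.28 ± 0.18 (adjusted p = 0.00256). GBP1 measured 4.89, 5.06 and 4.91 log2 CPM in parental, 5.74, 4.47 and 5.72 in TalaR-M, and 4.25, 4.16 and 4.33 in TalaR-DF libraries. TalaR-DF values lay below all others. It did not pass in the 9-library fit, with 1.07 ± 0.32 between TalaR-M and TalaR-DF cells (adjusted p = 0.0691), and was called there without replicate 2, at 1.49 (adjusted p = 1.25e-07). A pseudogene shares 5.52% of the 75-base words of GBP1.

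**Figure D4:**
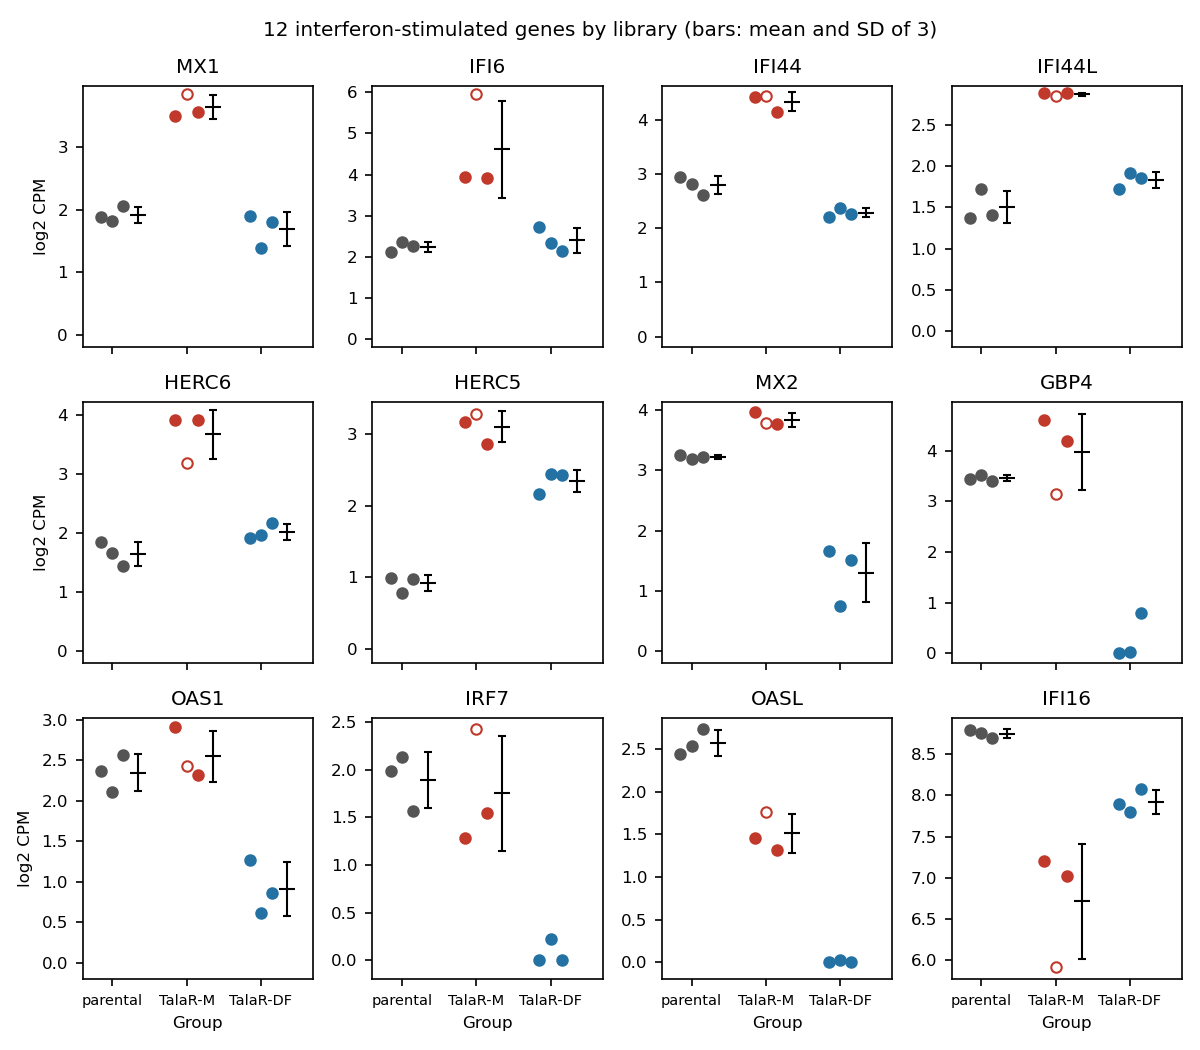
Log2 CPM of 12 members in each library by group, with TalaR-M replicate 2 as an open circle. Black bars give the mean and SD of 3 libraries and are left out where a library was listed at 0. MX1, IFI6, IFI44, IFI44L and HERC6 stand highest in TalaR-M with TalaR-DF near the parental level, MX2, GBP4, OAS1 and IRF7 are lowest in TalaR-DF, and IFI16 is highest in parental cells.

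IFI6, IFI44 and IFI44L, effectors used in interferon signatures, rose in TalaR-M cells over both other groups. IFI6, an anti-apoptotic membrane protein, measured 2.12, 2.37 and 2.25 log2 CPM in parental, 3.95, 5.96 and 3.92 in TalaR-M, and 2.74, 2.33 and 2.14 in TalaR-DF libraries. TalaR-M replicate 2 was the highest, and replicates 1 and 3 were still above all other libraries. The log2 fold change over parental cells was 2.36 ± 0.50 (adjusted p = 0.0112) and 1.69 without replicate 2 (adjusted p = 5.1e-06). Over TalaR-DF cells it was 2.21 ± 0.50 (adjusted p = 0.0264), which did not pass when any parental or TalaR-DF library was left out (adjusted p between 0.0558 and 0.107), and 1.53 without replicate 2 (adjusted p = 2.08e-05). An overlapping noncoding gene shares 19.2% of the 75-base words of IFI6, so part of its count is uncertain.

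IFI44 measured 2.94, 2.82 and 2.62 log2 CPM in parental, 4.42, 4.44 and 4.13 in TalaR-M, and 2.20, 2.37 and 2.27 in TalaR-DF libraries. Replicate 2 did not stand apart for this gene, and the 3 groups did not overlap. IFI44 rose by 1.54 ± 0.16 over parental (adjusted p = 0.000226) and by 2.05 ± 0.16 over TalaR-DF cells (adjusted p = 0.000137), while TalaR-DF and parental cells differed by -0.51 ± 0.16 (adjusted p = 0.0578), which passed without replicate 2 (adjusted p = 0.004). Its neighbour IFI44L measured 1.37, 1.73 and 1.41 log2 CPM in parental, 2.89, 2.86 and 2.89 in TalaR-M, and 1.72, 1.92 and 1.86 in TalaR-DF libraries. TalaR-M values agreed closely with each other and were above all others. The log2 fold changes were 1.37 ± 0.14 over parental (adjusted p = 0.000244) and 1.04 ± 0.14 over TalaR-DF cells (adjusted p = 0.00255). TalaR-DF and parental cells did not differ past the threshold with all libraries and did so without replicate 2, by 0.33 (adjusted p = 0.0436).

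The other effectors passed in fewer comparisons. LGALS3BP, a secreted glycoprotein, was higher in TalaR-M than in TalaR-DF cells by 0.66 ± 0.17 (adjusted p = 0.0397), which did not pass when any parental or TalaR-DF library was left out (adjusted p between 0.0816 and 0.155) and passed without TalaR-M replicate 2, at 0.50 (adjusted p = 0.000406). In that last fit LGALS3BP also rose in TalaR-M by 0.24 (adjusted p = 0.0232) and fell in TalaR-DF cells by 0.26 (adjusted p = 0.00912). IFI35 differed by 1.42 ± 0.48 between TalaR-M and parental cells (adjusted p = 0.0675), with 6.05 log2 CPM in replicate 2 beside 4.08 and 4.06 in replicates 1 and 3, and by 0.76 without replicate 2 (adjusted p = 0.00015). XAF1, a pro-apoptotic partner of XIAP, was listed at 1.00 log2 CPM or less in every library and at 0 in all 3 TalaR-DF libraries. SP110, a nuclear body protein, differed by 0.00 ± 0.13 in TalaR-M and 0.36 ± 0.13 in TalaR-DF cells, the latter passing without replicate 2 (adjusted p = 0.00234).

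Read across the 3 comparisons by the adjusted p, the members were spread over many patterns, some held by 1 gene. OAS2 aside, HERC6, IRF9, MX1, IFI6, IFI44 and IFI44L, 6 of 44 members (13.6%), rose in TalaR-M over both other groups and did not pass between TalaR-DF and parental cells, a pattern held by 3.14% of all genes tested. Without TalaR-M replicate 2 it was held by 10 of 44 members (22.7%) beside 6.67% of all genes, and no longer by HERC6 and IFI44L, which rose in TalaR-DF cells, or by IFI44, which fell there. IRF1, IRF7, OAS1, MX2 and GBP4, 5 members, did not pass between TalaR-M and parental cells, fell in TalaR-DF cells and were higher in TalaR-M than in TalaR-DF cells, as were 1.86% of all genes. Of these 5, IRF7 fell and MX2 and GBP4 rose in TalaR-M over parental cells without replicate 2. OASL and GBP2 (4.55% of 44) fell in both resistant populations, more deeply in TalaR-DF, as did 0.593% of all genes. A further 6.54% of all genes fell in both without passing between TalaR-M and TalaR-DF, and 0.73% fell more deeply in TalaR-M. HERC5 and IFIT1 rose in both. HERC5 was also higher in TalaR-M than in TalaR-DF, a pattern of 0.65% of all genes. IFIT1 did not pass there, like 2.87% of all genes, and 0.112% rose in both but were lower in TalaR-M. In 22 of 44 members (50%) no comparison passed, beside 67.9% of all genes. Of these 22 members, 21 passed in at least 1 comparison without TalaR-M replicate 2. The same held for 72.7% of the 8465 genes that passed in no comparison with all libraries.

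Of 52 other genes of the pathway, from ligands to inhibitors, 35 were tested. The 9 interferon genes examined, of types I, II and III, were listed at 0 except for IFNE at 0.11 log2 CPM in parental replicate 2. The receptor genes IFNAR1 and IFNAR2 did not pass, with differences of 0.05 ± 0.15 and 0.08 ± 0.38 in TalaR-M and of 0.02 ± 0.15 and 0.32 ± 0.38 in TalaR-DF cells over parental.

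Of the 35 tested pathway genes, 0 were called higher and 2 lower in TalaR-M, 0 higher and 2 lower in TalaR-DF over parental cells, and 1 higher and 0 lower in TalaR-M over TalaR-DF cells. The 2 lower were 5.71% of the list in each case, beside 7.72% and 7.49% of all genes called lower there, and the 1 higher was 2.86% beside 5.29%. By limma's adjusted p alone, 1 rose and 4 fell, 0 rose and 4 fell, and 1 rose and 0 fell in the same order, beside 10.3% and 13.2%, 6.77% and 11.8%, and 7.79% and 4.25% of all genes. Without TalaR-M replicate 2, 0 were called higher and 1 lower, 0 and 3, and 1 and 0. All genes called were then 6.78% and 7.07%, 2.73% and 8.63%, and 6.96% and 1.4%. By the adjusted p alone 6 then rose and 13 fell, 3 rose and 15 fell, and 10 rose and 4 fell. Shares of all genes were then 30.2% and 30%, 32.5% and 30.4%, and 23.5% and 25.3%. AIM2, a cytosolic DNA sensor that assembles an inflammasome, was listed at 3.75, 3.82 and 3.75 log2 CPM in parental libraries and at 0 in the 6 others. AIM2 passed the filter only through the parental libraries and therefore had to be lower in both resistant populations. The counts of lower pathway genes include AIM2, and its values are only a description. STING, the adaptor through which cytosolic DNA signals to interferon genes, is listed as TMEM173 and measured 3.77, 3.79 and 3.70 log2 CPM in parental, 3.41, 3.75 and 3.53 in TalaR-M, and 1.95, 1.58 and 2.22 in TalaR-DF libraries. It fell in TalaR-DF cells by 1.84 on the log2 scale (SE 0.19, adjusted p = 0.000312) and exceeded them in TalaR-M by 1.65 ± 0.19 (adjusted p = 0.00109). PIAS1, an inhibitor of the pathway, fell in TalaR-M cells by 1.07 on the log2 scale (SE 0.32, adjusted p = 0.0455), which did not pass when any parental or TalaR-DF library was left out (adjusted p between 0.0751 and 0.145). Without TalaR-M replicate 2 PIAS1 was not called.

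A list of 49 other interferon-induced genes, of which 40 were tested, gave 3 called higher and 2 lower in TalaR-M, 1 higher and 3 lower in TalaR-DF over parental cells, and 4 higher and 0 lower in TalaR-M over TalaR-DF cells. These were 7.5% and 5% beside 5.53% and 7.72% of all genes, 2.5% and 7.5% beside 2.25% and 7.49%, and 10% and 0% beside 5.29% and 1.64%. By the adjusted p alone, 5 rose and 2 fell, 2 rose and 4 fell, and 7 rose and 0 fell. The shares of all genes were 10.3% and 13.2%, 6.77% and 11.8%, and 7.79% and 4.25%. Without TalaR-M replicate 2, 2 were called higher and 3 lower, 1 and 4, and 5 and 0. All genes called were then 6.78% and 7.07%, 2.73% and 8.63%, and 6.96% and 1.4%. By the adjusted p alone 22 then rose and 10 fell, 12 rose and 16 fell, and 19 rose and 2 fell. Shares of all genes were then 30.2% and 30%, 32.5% and 30.4%, and 23.5% and 25.3%. CD274, which encodes the checkpoint ligand PD-L1, measured 0.04, 0.53 and 0.28 log2 CPM in parental, 3.31, 1.82 and 3.06 in TalaR-M, and 1.43, 1.58 and 1.69 in TalaR-DF libraries. It rose by 2.45 ± 0.36 in TalaR-M (adjusted p = 0.00171) and by 1.28 ± 0.36 in TalaR-DF cells (adjusted p = 0.0402), the latter not passing when any parental or TalaR-DF library was left out (adjusted p between 0.0821 and 0.145). Changes of the genes named from this list are those of the 9-library fit. Which of their calls held without TalaR-M replicate 2 is not given here. TNFSF10, the death ligand TRAIL, rose in TalaR-M by 1.18 ± 0.13 over parental cells (adjusted p = 0.000404). The lysis factor APOL3 rose by 1.06 ± 0.17 over parental (adjusted p = 0.0027) and by 1.64 ± 0.17 over TalaR-DF cells (adjusted p = 0.000582), and its relative APOL1 by 1.25 ± 0.21 over TalaR-DF cells (adjusted p = 0.00757).

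Several of these genes were lowest in TalaR-DF cells. CASP1, the inflammasome protease, fell there by 2.58 on the log2 scale (SE 0.19, adjusted p = 4.35e-05) and was 2.31 ± 0.19 higher in TalaR-M (adjusted p = 0.000184). GBP3 was 1.41 ± 0.23 higher in TalaR-M than in TalaR-DF cells (adjusted p = 0.00617). TYMP, thymidine phosphorylase, fell by 2.36 in TalaR-M (SE 0.47, adjusted p = 0.00775) and by 3.22 in TalaR-DF cells (SE 0.47, adjusted p = 0.00193). BATF2, a transcription factor, was listed at 1.41, 1.29 and 1.41 log2 CPM in parental libraries and at 0 in the 6 others. Like AIM2, BATF2 passed the filter only through the parental libraries and had to be lower elsewhere. The counts for its list include it.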

How the data were processed

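RNAseq of 3 parental, 3 TalaR-M and 3 TalaR-DF libraries of PSN1 cells was analysed. Libraries were stranded and made from poly(A) RNA, with paired reads. The authors deposited log2 CPM values with values under 0 set to 0; the unit was read from the values, of which 100% under 50 CPM gave whole reads within 0.01, and the recovered reads served for depth only. The submitters' processing notes name hg38, and the aligner, the counting method and its strand setting are not given in the sources used here. Columns named for withdrawn cells were taken as TalaR-DF.

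A minimum of 1 CPM in 3 or more libraries left 12471 genes for limma 3.58.1 (R 4.3.3) with a mean-variance trend, all 9 libraries in one model and Benjamini-Hochberg adjustment over all of them. A gene was called at adjusted p under 0.05 and at least 2-fold. "Rose" and "fell" mean adjusted p under 0.05. Members called in any comparison, with or without TalaR-M replicate 2, are given with all values. At most the 8 largest changes per comparison are named from the other lists, beside IFNAR1 and IFNAR2, and 1 gene that this rule names is not reported here. Members and lists were chosen with earlier results of these data known. Fits that left out a library kept the same genes.

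Exonic lengths and overlaps came from GENCODE 44 (GRCh38) and promoter windows from RefSeq (GRCh38.p14). The alternatives tried were pseudocounts (0.1 or 8 CPM), filters (none or 5 CPM), median ratio rescaling, no trend, a replicate block, 2-group fits, array weights, a 1.5-fold threshold and leaving out each library. Depth limits low genes: 1 CPM was 7.54 reads in TalaR-M replicate 2 and 12.7 to 15.7 reads in the others.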

Additional observations from a re-analysis of the deposited data

How the results depend on the processing

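Under an added pseudocount of 8 CPM, members called numbered 3 (TalaR-M minus parental), 2 (TalaR-DF minus parental) and 5 (TalaR-M minus TalaR-DF), and genes called 711, 426 and 272, since low genes then count for less. Array weights gave 37, 32 and 35 members past the adjusted p and a median of 0.80 for TalaR-M minus TalaR-DF, in which median ratio rescaling gave 0.70. That rescaling moved the median of all genes to 0.03, -0.05 and 0.09. Fits of only the 2 groups gave 32 members past the adjusted p for TalaR-DF minus parental, and 9 members called, 10 past the adjusted p and 484 genes called for TalaR-M minus TalaR-DF. Leaving out each library gave 9 to 13, 7 to 11 and 9 to 16 members called, 11 to 38, 10 to 32 and 12 to 36 members past the adjusted p, medians of 0.088 to 0.35, -0.25 to -0.19 and 0.50 to 0.76, and 1298 to 2045, 983 to 1417 and 578 to 1043 genes called. Without TalaR-M replicate 2, these were 13, 11 and 16 members called and 38, 32 and 36 past the adjusted p, and without TalaR-DF replicate 1 the TalaR-M minus TalaR-DF count was 9. Of all genes, 30.2% and 30%, 32.5% and 30.4%, and 23.5% and 25.3% passed higher and lower without TalaR-M replicate 2. In the other alternatives that share of all genes was not counted. Their counts of members past the adjusted p therefore show nothing particular to the members. The difference of DDX60 between TalaR-M and parental cells turned to 0.73 with array weights and 0.80 without TalaR-M replicate 2, and that of SAMD9L to 0.53 and 0.54. Leaving out each library gave -0.67 to 0.80 for DDX60 and -0.42 to 0.54 for SAMD9L there.

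The labels do not say whether replicate numbers pair the samples. Correlations of same-numbered deviations from the group means ran from -0.31 to 0.16. With 3 libraries a group and TalaR-M replicate 2 among them, these correlations cannot decide it. A replicate block gave 11, 8 and 12 members called, 11, 11 and 14 past the adjusted p, and 1546, 1132 and 750 genes called. Under the block, no member gained a pass and 7 lost one: IRF9 (TalaR-M minus parental, adjusted p = 0.0522), UBE2L6 and SAMD9L (TalaR-DF minus parental) and HERC5, IFI16, BST2 and LGALS3BP (TalaR-M minus TalaR-DF). Of the other genes named, PIAS1 (TalaR-M minus parental), CD274 and GBP3 (TalaR-DF minus parental) missed it.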
